A study of Mus musculus with 4 samples.

Results

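The CCN genes encode 6 secreted matricellular proteins, Ccn1 (Cyr61), Ccn2 (Ctgf), Ccn3 (Nov), Ccn4 (Wisp1), Ccn5 (Wisp2) and Ccn6 (Wisp3), and they are described here across the stromal cell types of mouse long bone. The members were the rows whose gene symbol equals 1 of these names, 6 of the 53703 features counted, and each symbol has 1 row. They were counted in 4 scRNA-seq libraries, made from droplets, of cells of the femoral and tibial metaphysis after depletion of blood cells, from mice at an age of 12 weeks. The 2 mutant libraries (genotype Lats2iECKO) come from Lats2 lox/lox mice that carry the tamoxifen-inducible, endothelial Cdh5(PAC)-CreERT2 transgene, and the 2 control libraries from Cre-negative littermates that received the same tamoxifen. Per the study's methods a Cdh5(PAC)-mT/nG reporter was bred into mutants and controls, but whether the sequenced mice carried it is not stated. The study used animals of both sexes on a C57/BL6 background, and the sex of the mice in each library is not given in the sources used here. The deletion is driven by an endothelial promoter, so any change outside endothelial cells (ECs) was measured in cells in which the transgene is not meant to act. Whether a library holds 1 mouse or several is not given in the sources used here, and p-values measure only the spread between these libraries.

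CCN proteins are built from modules that resemble insulin-like growth factor binding proteins, von Willebrand factor type C, thrombospondin type 1 repeats and, except in Ccn5, a cystine knot. They act in the matrix around the cell through integrins, heparan sulfate proteoglycans such as syndecan 4, and LRP co-receptors, rather than through a receptor of their own. Ccn1 and Ccn2 are the textbook targets of YAP1/TAZ with TEAD factors, which LATS kinases restrain, and they are also immediate early genes that serum response factor (SRF) controls. In the skeleton Ccn2 is best known for its role in growth plate cartilage, Ccn4 for bone-forming cells and Ccn6 for a human disorder of articular cartilage.

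The members lie on 4 mouse chromosomes. On GRCm39 Ccn1 (ENSMUSG00000028195) runs from 145352720 to 145355738 on the minus strand of chromosome 3, and Ccn2 (ENSMUSG00000019997) from 24471333 to 24474900 on the plus strand of chromosome 10. Ccn6 (ENSMUSG00000062074) is on chromosome 10 as well, on the minus strand from 39026966 to 39041928. Ccn3 (ENSMUSG00000037362, 54609012 to 54620154) and Ccn4 (ENSMUSG00000005124, 66763060 to 66795050) are both on the plus strand of chromosome 15, and Ccn5 (ENSMUSG00000027656) on the plus strand of chromosome 2 from 163662753 to 163675066. The canonical transcript of each has 5 exons. RefSeq promoter windows, the 250 bases before the transcription start on GRCm38.p6, were at hand for Ccn1 (chr3:145649986-145650235, minus strand) and Ccn6 (chr10:39163795-39164044, minus strand). These were the members that the table of promoters held, and they are shown to give the sequence before these genes. Capitals mark motifs found, which are CATTCC (the core that TEAD factors bind) and TATAAA (the TATA box).
Ccn1: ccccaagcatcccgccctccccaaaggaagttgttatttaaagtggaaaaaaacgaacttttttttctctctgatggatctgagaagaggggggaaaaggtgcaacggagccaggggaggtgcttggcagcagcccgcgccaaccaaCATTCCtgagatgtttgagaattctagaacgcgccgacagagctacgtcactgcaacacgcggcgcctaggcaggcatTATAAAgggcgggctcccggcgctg
Ccn6: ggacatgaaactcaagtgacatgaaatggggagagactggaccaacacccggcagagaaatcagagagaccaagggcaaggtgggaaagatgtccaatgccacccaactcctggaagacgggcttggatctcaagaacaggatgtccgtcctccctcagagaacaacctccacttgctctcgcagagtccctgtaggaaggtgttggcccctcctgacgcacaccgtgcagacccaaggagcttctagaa
In the Ccn1 window CATTCC lies 103 to 98 bases before the start and TATAAA 25 to 20 bases before it, and the matches do not overlap. Capitals are absent from the Ccn6 window, which held no match of either, nor of TGANTCA (AP-1), CAGACA (SMAD) or the serum response element, on either strand. Of 32851 promoter windows of the same length, 12.6% held CATTCC, 12.4% TATAAA, 6.75% TGANTCA, 17.1% CAGACA and 1.47% the serum response element. A match is a description of the letters and not evidence of binding.

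The libraries held 69636600 and 78953446 UMIs (mutants) and 83453507 and 85899079 UMIs (controls). Barcodes with at least 1000 UMIs and 800 genes that passed further limits on quality numbered 5119 and 5887 in mutants and 6813 and 6780 in controls, and any pair of libraries shared 6 to 16 of them. Each barcode was gated on marker genes, none of them a CCN gene, which gave 7811 chondrocytes (CHOs), 5498 bone marrow stromal cells (BMSCs), 2817 ECs, 2388 osteoblasts (OBs), 1303 mural cells, 648 fibroblasts and 271 leukocytes. All 12 EC markers and all 11 CHO markers were detected in every library of their class. Chondrocytes were further divided into superficial-like, resting-like, columnar-like, pre-hypertrophic-like, hypertrophic-like and cycling zones, and ECs into arterial-like, sinusoidal-like and metaphyseal-like cells. Levels are given as CPM, a class's summed counts in a library scaled to a common total. In ECs the targeted gene Lats2 stood at 92.8 and 97.4 CPM in mutants and at 133 and 122 CPM in controls. It was lower in mutants by edgeR's quasi-likelihood test (log2 fold change −0.36, SE 0.082, adjusted p = 0.00126), but not in the sinusoidal-like subset (0.10, adjusted p = 0.665). Counts were taken over all exons and introns, so they do not separate RNA of recombined and intact alleles.

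Within control bones the members differed in the classes where they were highest. Ccn1 was highest in pre-hypertrophic-like CHOs, at 997 ± 69.5 CPM (SD, n = 2), followed by columnar-like CHOs at 893 ± 37.5 CPM. Cycling, resting-like, hypertrophic-like and superficial-like CHOs came next with means of 567 to 483 CPM, and each overlapped its neighbour in that order. Fibroblasts (264 CPM), mural cells (262 CPM), metaphyseal-like BMSCs (235 CPM) and OBs (231 CPM) formed an overlapping middle group above diaphyseal-like BMSCs (181 CPM). The EC classes lay lowest of the stromal classes, with arterial-like ECs at 113 CPM, sinusoidal-like ECs at 101 CPM, which overlapped them, and metaphyseal-like ECs at 56.7 CPM. Leukocytes, which serve as a class without expected expression, stood at 5.45 CPM.

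Ccn2 had a different order along the cartilage. Superficial-like CHOs had 3650 ± 634 CPM (SD, n = 2), hypertrophic-like CHOs 1724 ± 237 CPM and fibroblasts 1423 ± 50.4 CPM, and none of these overlapped. Pre-hypertrophic-like (940 CPM), resting-like (865 CPM) and columnar-like CHOs (732 CPM) followed, also without overlap. Below them lay cycling CHOs (433 CPM) and metaphyseal-like BMSCs (340 CPM), which overlapped each other, then mural cells (194 CPM). Diaphyseal-like BMSCs (120 CPM), sinusoidal-like ECs (119 CPM), metaphyseal-like ECs (73.8 CPM) and OBs (62.6 CPM) overlapped in a chain, and arterial-like ECs had 36.1 CPM. Ccn2 in arterial-like ECs of controls overlapped the 21.1 CPM of leukocytes.

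The other members were found in fewer classes. Ccn3 stood at 182 ± 8.73 CPM (SD, n = 2) in control fibroblasts and 69.5 CPM in mural cells, against at most 17.1 CPM in any EC, CHO or BMSC class. Ccn4 stood at 409 ± 4.75 CPM in OBs and 100 CPM in metaphyseal-like BMSCs, with at most 36.3 CPM elsewhere. Ccn5 stood at 297 ± 17.3 CPM in diaphyseal-like and 130 CPM in metaphyseal-like BMSCs, 62.1 CPM in fibroblasts and 32.5 CPM in hypertrophic-like CHOs, and lower classes had at most 7.52 CPM. Ccn6 was a cartilage transcript, with 91.1 CPM in columnar-like and 80.3 CPM in pre-hypertrophic-like CHOs, which overlapped. Resting-like CHOs had 56.6 CPM and overlapped cycling CHOs at 53.1 CPM. Clusters in place of the gate gave no columnar-like level of Ccn6, so its order was not checked with them. Outside cartilage its highest control class was sinusoidal-like ECs at 1.90 CPM, from 0 and 7 counts.

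The counts that each class contributed followed these levels and the number of cells. ECs gave 1772 of 30545 and 2146 of 31637 stromal Ccn1 counts in mutants and 408 of 23462 and 560 of 25698 in controls, while CHOs gave 25147 and 25058 in mutants and 15924 and 18328 in controls. CHOs likewise gave 60349 of 67131 and 60401 of 67480 Ccn2 counts in mutants and 27735 of 34019 and 28672 of 35598 in controls. Most counts of both genes thus came from cartilage in each library. OBs gave 827 of 1607 and 1131 of 2050 Ccn4 counts in mutants against 5900 of 6868 and 6465 of 7420 in controls, beside 204 and 225 gated OBs in mutants and 978 and 981 in controls. BMSCs gave 1155 of 1659 and 1253 of 1792 Ccn5 counts in mutants against 3246 of 3539 and 3244 of 3622 in controls. In such sums fewer cells of a type and less RNA per cell cannot be told apart, whereas the CPM of a class are relative to its own total.

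**Figure D1:**
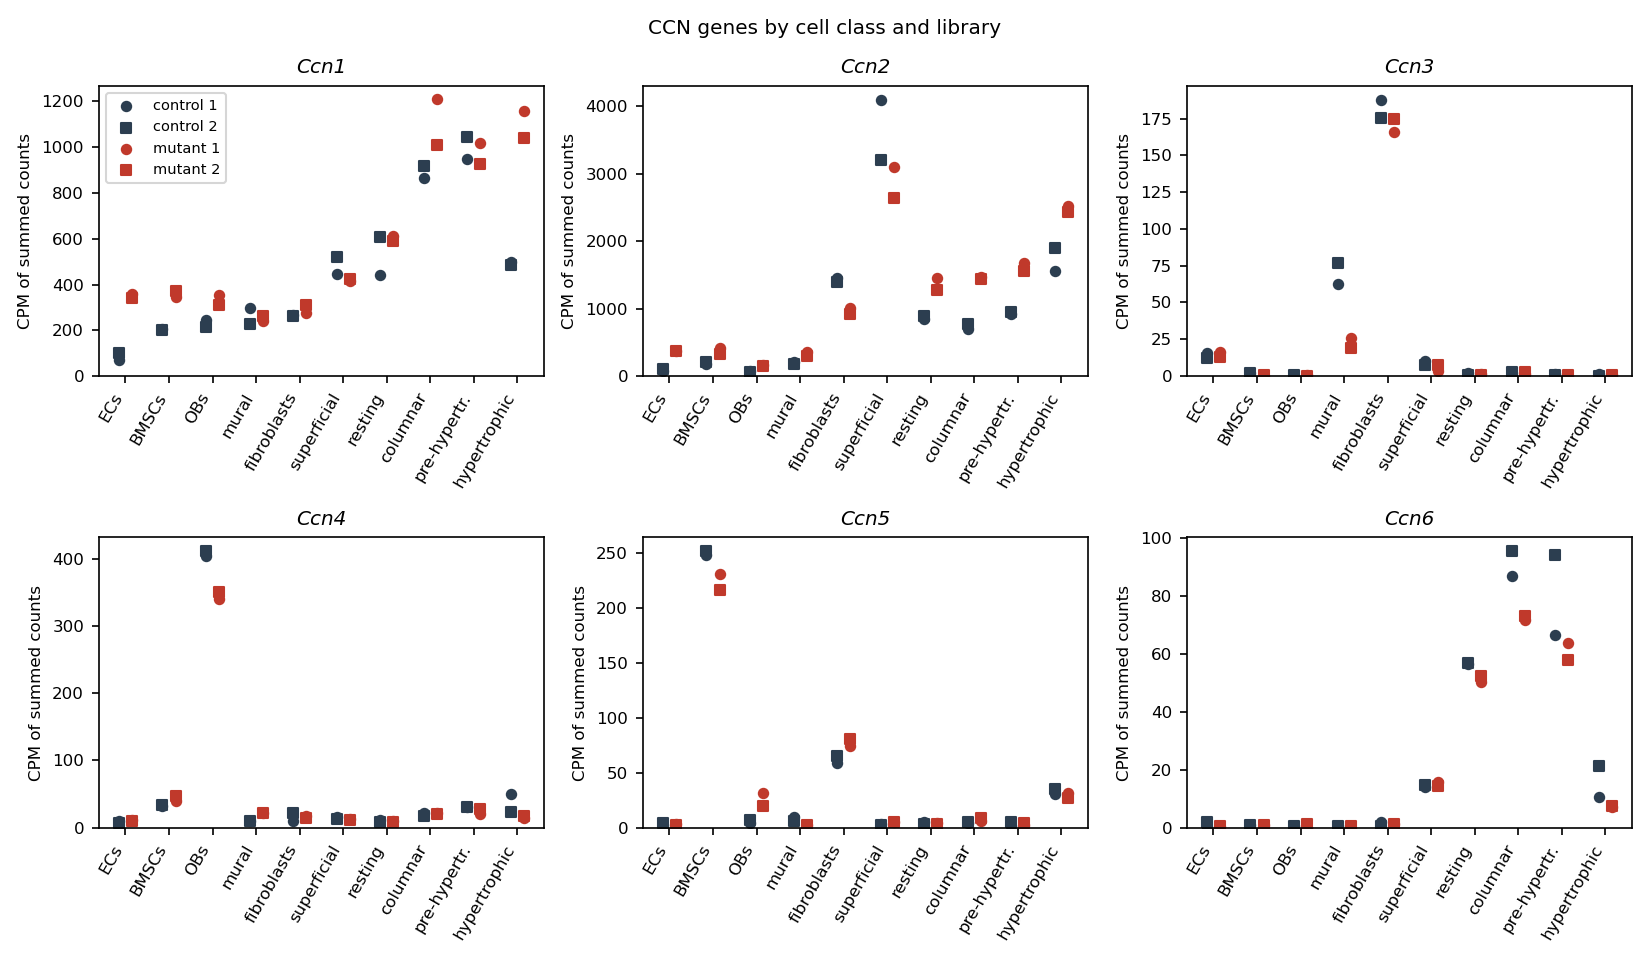
Level of each CCN gene (CPM of the summed counts, linear axes from 0) in ECs, BMSCs, OBs, mural cells, fibroblasts and 5 CHO zones, with 1 point per library, controls dark and mutants red. Ccn1 and Ccn2 are present in each of these classes, while Ccn3 peaks in fibroblasts, Ccn4 in OBs, Ccn5 in BMSCs and Ccn6 in CHOs.

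Ccn1 and Ccn2 were higher in ECs of mutants, and these were the only members that passed the filter there. That filter asks for enough counts and for a count in at least 20% of cells of either genotype. Ccn1 stood at 357 and 343 CPM in mutant ECs and at 69.4 and 100.5 CPM in control ECs. Both mutant libraries lay above both controls, a 4.31-fold difference (log2 fold change 2.11, SE 0.11, adjusted p = 1.8e-10, edgeR). Ccn2 stood at 370 and 367 CPM against 77.2 and 104 CPM. The libraries again did not overlap, and the difference was 4.26-fold (log2 fold change 2.09, SE 0.098, adjusted p = 3.8e-11, edgeR). Of the genes tested in ECs 60.3% were called and 2.39% were called at least 2-fold higher in mutants, the group that holds both genes. For a single gene, an exact permutation test of 2 libraries against 2 cannot give a p under 0.333. Both calls held under every alternative run, with log2 fold changes of 1.86 to 2.40 for Ccn1 and 1.89 to 2.32 for Ccn2.

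The 3 EC subsets showed the same direction. In arterial-like ECs Ccn1 stood at 382 and 331 CPM against 102 and 124 CPM (log2 fold change 1.73, SE 0.13, adjusted p = 9.1e-09, edgeR). In sinusoidal-like ECs it stood at 351 and 306 CPM against 69.5 and 133 CPM (log2 fold change 1.77, SE 0.23, adjusted p = 4.2e-04, edgeR). In metaphyseal-like ECs, cells of the vessels beside the growth plate, it stood at 304 and 400 CPM against 54.2 and 59.2 CPM (log2 fold change 2.69, SE 0.15, adjusted p = 1.2e-08, edgeR). Mutant and control libraries did not overlap in any of the subsets. Whether the effect differed between subsets was not tested.

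Ccn2 moved with Ccn1 in each subset but from different levels. Metaphyseal-like ECs had 429 and 464 CPM in mutants and 34.6 and 113 CPM in controls (log2 fold change 2.68, SE 0.29, adjusted p = 6.6e-06, edgeR). The size of this value rests on the controls, at 2.04 without control replicate 1 and 3.75 without control replicate 2, and it was 3.30 with a stricter gate and 3.63 without the barcodes of most UMIs, each called. Sinusoidal-like ECs had 491 and 352 CPM against 103 and 134 CPM (log2 fold change 1.90, SE 0.18, adjusted p = 6.4e-05, edgeR). Arterial-like ECs had 133 and 83.4 CPM against 49.9 and 22.4 CPM (log2 fold change 1.61, SE 0.26, adjusted p = 1.2e-04, edgeR), and in mutants they lay below the other subsets. In metaphyseal-like and arterial-like ECs Ccn2 passed the filter of 20% of cells only through mutants (63.0% against 17.0% and 32.9% against 9.40% of cells), the group in which it was high, and it was also called without that filter. With DESeq2 this arterial call was lost at adjusted p = 0.0606, and without control replicate 1 the value was 2.33. The share of tested genes called was 28.1% in arterial-like, 25.3% in sinusoidal-like and 37.2% in metaphyseal-like ECs, and 2.82%, 4.28% and 3.36% were called at least 2-fold higher in mutants.

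The increase was also seen in the number of ECs with a count. Ccn1 was counted in 53.9% (exact 95% interval 49.5 to 58.2) and 56.9% (53.0 to 60.7) of mutant ECs and in 21.0% (18.3 to 23.9) and 25.9% (22.9 to 29.1) of control ECs. Ccn2 was counted in 51.8% (47.4 to 56.1) and 52.7% (48.8 to 56.5) of mutant ECs against 20.6% (17.9 to 23.6) and 20.8% (18.1 to 23.8) of control ECs. The intervals of the genotypes did not meet, and they cover counting error only. Mutant ECs were the deeper ones, with medians of 6741 and 6528 UMIs against 5484 and 5195. After thinning every cell to 1000 UMIs the shares were 20.1% against 5.83% for Ccn1 and 19.1% against 6.06% for Ccn2, and all cells had enough UMIs to stay. Leukocytes, of 8443 to 10632 median UMIs, had Ccn1 counts in 6.15% of cells in mutants and 4.85% in controls, and Ccn2 counts in 18.5% and 13.1%. Thinned to 1000 UMIs, leukocytes had 1.05% and 0.808% for Ccn1 and 2.45% and 1.74% for Ccn2, below the thinned EC shares in either genotype.

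Ccn1 and Ccn2 were often counted in the same EC. Both were counted in 32.4% (28.5 to 36.6) and 35.4% (31.7 to 39.1) of mutant ECs and in 6.43% (4.85 to 8.33) and 8.55% (6.71 to 10.7) of control ECs. If the 2 genes were counted independently, the product of their shares would give 27.9% and 29.96% in mutants and 4.33% and 5.39% in controls. ECs with both had medians of 11803 to 12595 UMIs and those with neither 4304 to 4859.5 UMIs, so depth moved with the overlap, and its part was not tested.

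**Figure D2:**
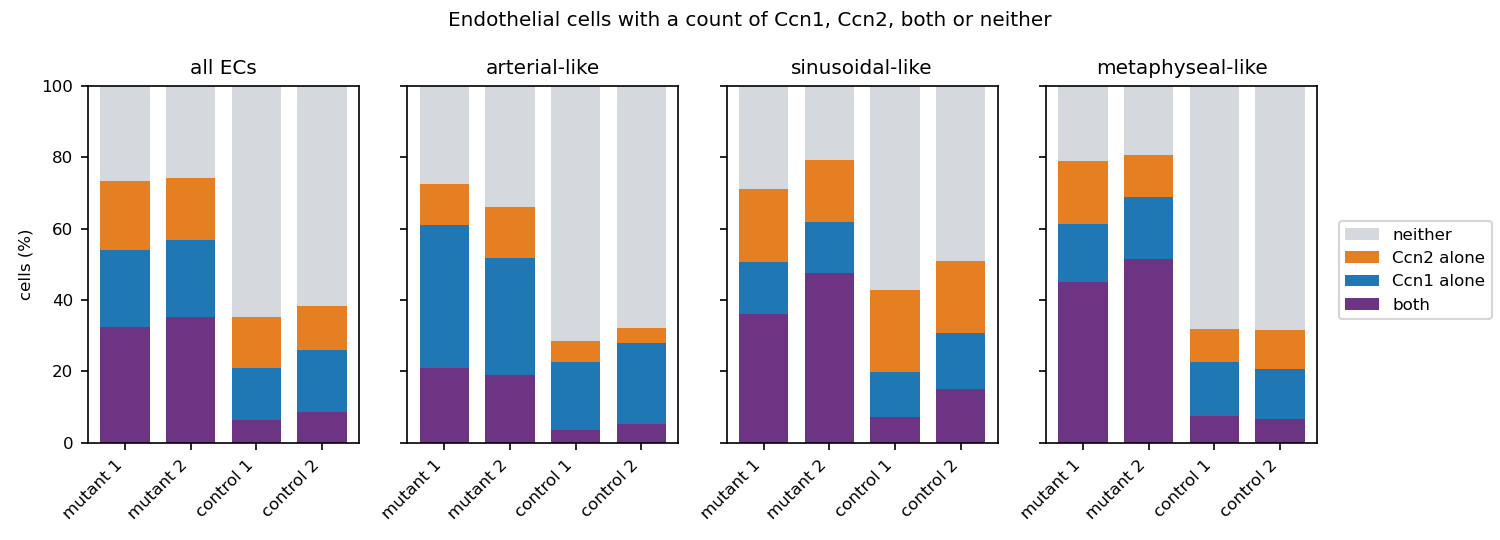
Percent of cells of each library with a count of both Ccn1 and Ccn2, of 1 of them alone, or of neither, over all ECs and in the 3 EC subsets. Over all ECs the cells with both make up 32.4% and 35.4% in the mutant libraries and 6.43% and 8.55% in the control libraries.

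Free RNA was estimated from near-empty barcodes and from markers of other cell types. It made up 23.9 and 28.8 CPM of Ccn1 in mutant ECs and 13.2 and 13.8 CPM in controls. For Ccn2 it made up 52.6 and 63.3 CPM in mutant ECs and 17.9 and 17.7 CPM in controls. Of other measures, the summed level of 10 immediate early SRF targets was 4102 and 4132 CPM in mutant ECs and 2395 and 2433 CPM in control ECs. Markers of erythroid cells (6 of 6 detected in each library) summed to 561 and 636 CPM against 234 and 239 CPM, and those of OBs (8 of 8 detected) to 171 and 159 CPM against 573 and 703 CPM. Markers of superficial-like CHOs, the class with the highest Ccn2, summed to 294 and 463 CPM in mutant and 59.9 and 233 CPM in control ECs. In sinusoidal-like ECs they summed to 1074 and 203 CPM against 41.7 and 69.9 CPM (4 of 5 detected), highest in the library of highest Ccn2, while in arterial-like and metaphyseal-like ECs the genotypes overlapped. All 11 general CHO markers were detected in ECs and summed to 253 and 338 CPM against 288 and 440 CPM, which overlapped. Fibroblast markers (7 of 9 detected) summed in ECs to 258 and 215 CPM in mutants and 119 and 163 CPM in controls, BMSC markers (10 of 10) to 1561 and 1519 CPM against 1268 and 1314 CPM, and diaphyseal-like BMSC markers to 818 and 775 CPM against 550 and 558 CPM. The part of these measures in the Ccn1 and Ccn2 differences was not tested.

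The remaining members were scarce in ECs. Ccn3 stood at 16.3 and 13.3 CPM in mutant ECs and 15.6 and 12.2 CPM in control ECs, and Ccn4 at 10.7 and 9.91 CPM against 9.35 and 7.18 CPM. The genotypes overlapped for Ccn3 and did not for Ccn4, and neither gene passed the filter. Ccn5 had 16 and 14 counts in mutant ECs and 16 and 21 in controls, and Ccn6 had 1 and 3 counts against 2 and 10. Ccn5 was counted in 1.52% of mutant and 1.53% of control ECs, beside 1.54% of 65 mutant and 1.46% of 206 control leukocytes, which were deeper. Thinned to 1000 UMIs the shares were 0.222% and 0.268% of ECs and 0.104% and 0.152% of leukocytes, too few cells for an order to be read. Neither Ccn3 nor Ccn6 was counted in any of 65 mutant and 206 control leukocytes, which allows shares of up to 4.62% and 1.46% of cells with a count.

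Outside ECs, Ccn1 and Ccn2 were higher in mutant BMSCs and OBs too. BMSCs had Ccn1 at 346 and 372 CPM in mutants and 205 and 202 CPM in controls (log2 fold change 0.90, SE 0.064, adjusted p = 2.5e-10, edgeR). They had Ccn2 at 419 and 333 CPM against 172 and 212 CPM (log2 fold change 1.05, SE 0.097, adjusted p = 1.5e-08, edgeR). Neither gene overlapped between genotypes in BMSCs, where 56.8% of genes tested were called and 1.96% were called at least 2-fold higher in mutants, Ccn2 among them. Hypertrophic-like CHO markers summed in BMSCs to 11100 and 9999 CPM in mutants and 7178 and 7103 CPM in controls, and those of metaphyseal-like BMSCs to 8560 and 7845 CPM against 5082 and 5186 CPM, and their part was not tested. OBs had Ccn1 at 355 and 309 CPM against 246 and 215 CPM (log2 fold change 0.51, SE 0.089, adjusted p = 0.0026, edgeR). They had Ccn2 at 157 and 151 CPM against 68.8 and 56.4 CPM (log2 fold change 1.29, SE 0.10, adjusted p = 1.0e-05, edgeR). Free RNA was estimated to hold 119 and 73.3 CPM of Ccn2 in mutant and 39.9 and 39.1 CPM in control OBs, a large part of the measured levels. Hypertrophic-like CHO markers summed in OBs to 14541 and 18676 CPM in mutants and 7664 and 7783 CPM in controls, and their part was not tested. In OBs 14.5% of genes were called and 1.26% were called at least 2-fold higher in mutants. The immediate early SRF targets moved with both classes, at 3333 and 2959 CPM against 1441 and 1375 CPM in BMSCs and 2450 and 2274 CPM against 1214 and 1264 CPM in OBs, and their part was not tested. The OB call of Ccn1 was lost without control replicate 2 (adjusted p = 0.0587) and that of Ccn2 with clusters in place of the gate (log2 fold change 0.73, adjusted p = 0.0838).

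In mural cells and fibroblasts, Ccn1 and Ccn2 parted. Mural cells had Ccn1 at 239 and 263 CPM in mutants and 297 and 226 CPM in controls, which overlapped, with a log2 fold change of −0.04 (95% interval −0.28 to 0.20). They had Ccn2 at 358 and 290 CPM against 207 and 180 CPM (log2 fold change 0.76, SE 0.11, adjusted p = 7.2e-05, edgeR), a call lost without mutant replicate 1 (adjusted p = 0.0544). The mural markers themselves (8 of 8 detected) summed to 13391 and 14009 CPM in mutants and 21681 and 22696 CPM in controls. Hypertrophic-like CHO markers summed in mural cells to 3559 and 3802 CPM against 255 and 315 CPM, fibroblast markers (7 of 9 detected) to 1336 and 1288 CPM against 558 and 830 CPM, and the SRF targets to 3883 and 4470 CPM against 2511 and 2411 CPM. The part of these in the mural values of Ccn2 and of the other members was not tested. In fibroblasts, Ccn2 was lower in mutants, at 1016 and 914 CPM against 1459 and 1387 CPM (log2 fold change −0.49, SE 0.085, adjusted p = 0.0114, edgeR). Fibroblast Ccn1 stood at 277 and 311 CPM against 265 and 263 CPM and was not called (95% interval of the log2 fold change 0.0078 to 0.44), but with a stricter gate it was called higher (log2 fold change 0.84, adjusted p = 0.00688, edgeR) and with clusters its sign turned (−0.52). Of the genes tested 42.7% were called in mural cells and 4.68% in fibroblasts. The fibroblast call of Ccn2 was lost with a stricter gate, with clusters and without the barcodes of most UMIs, at adjusted p of 0.0983, 0.553 and 0.0958. The fibroblast gate rests on 9 markers, 8 of them detected in each library, which summed to 8540 and 8525 CPM in mutants and 7598 and 6831 CPM in controls. Markers of superficial-like CHOs, a class with high Ccn2, summed in these cells to 18589 and 19788 CPM in mutants and 21946 and 22151 CPM in controls, and their part was not tested.

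**Figure D3:**
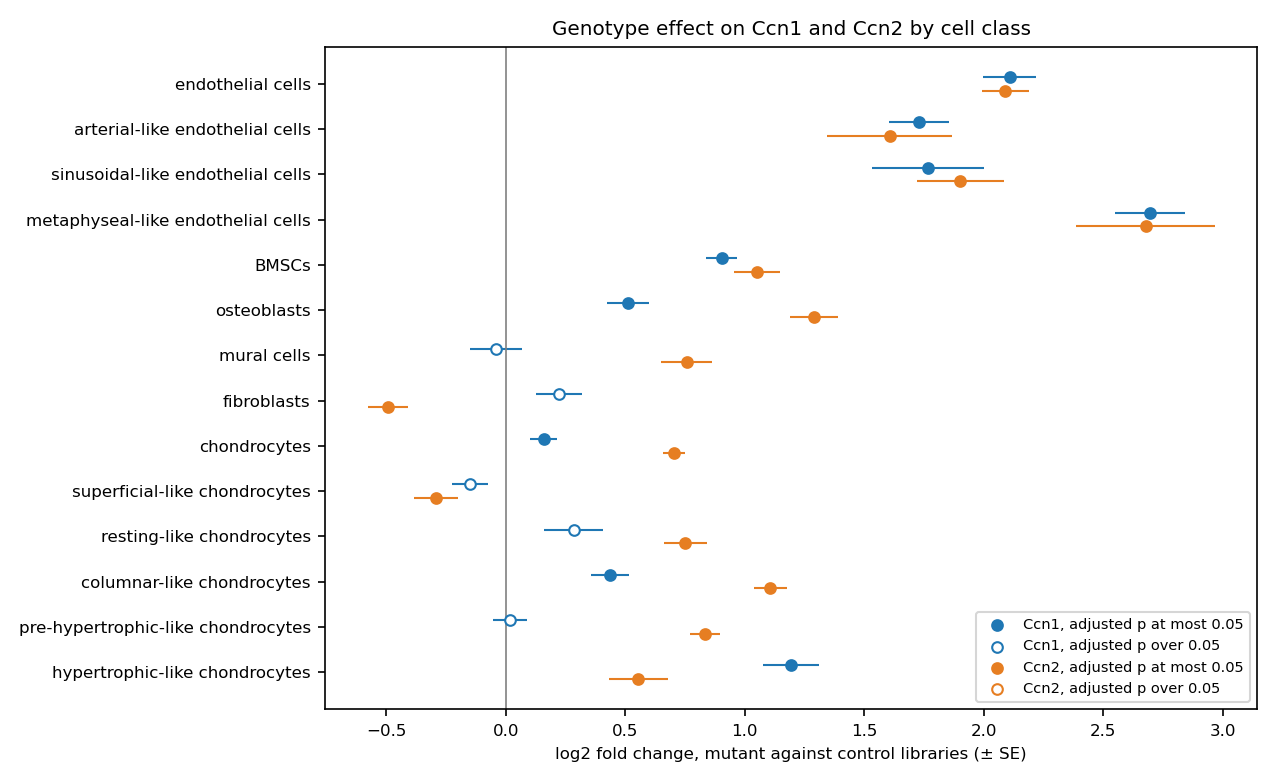
Log2 fold change of mutants over controls with its standard error for Ccn1 and Ccn2, by cell class (edgeR, 2 libraries against 2), with open points where the difference was not called. The EC classes lie highest, from 1.61 to 2.69 for Ccn1 and Ccn2, and Ccn2 lies below 0 in fibroblasts and superficial-like CHOs.

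Within cartilage Ccn2 was higher in mutants in each zone from resting-like to hypertrophic-like, and lower in superficial-like CHOs. Resting-like CHOs, the reserve of the growth plate, had Ccn2 at 1450 and 1279 CPM in mutants and 843 and 887 CPM in controls (log2 fold change 0.75, SE 0.090, adjusted p = 3.3e-05, edgeR). Columnar-like CHOs had 1464 and 1435 CPM against 690 and 775 CPM (log2 fold change 1.11, SE 0.068, adjusted p = 3.1e-08, edgeR). Clusters gave no columnar-like value to set beside it. Pre-hypertrophic-like CHOs had 1674 and 1554 CPM against 924 and 956 CPM (log2 fold change 0.83, SE 0.061, adjusted p = 3.9e-07, edgeR). Mutant and control libraries did not overlap in these zones. Markers of superficial-like CHOs, the class of highest Ccn2, summed to 181 and 188 CPM against 82.9 and 98.4 CPM in columnar-like and to 911 and 1012 CPM against 644 and 582 CPM in resting-like CHOs, and overlapped in pre-hypertrophic-like CHOs. Hypertrophic-like markers summed to 3907 and 2937 CPM against 1664 and 2384 CPM in columnar-like CHOs, overlapped in resting-like CHOs and were lower in mutants in pre-hypertrophic-like CHOs. Fibroblast markers summed to 302 and 263 CPM in mutants against 178 and 231 CPM in controls in resting-like, 54.4 and 80.3 CPM against 36.4 and 30.9 CPM in columnar-like and 153 and 259 CPM against 20.8 and 14.5 CPM in pre-hypertrophic-like CHOs. The part of these markers was not tested. Hypertrophic-like CHOs had 2528 and 2426 CPM against 1556 and 1892 CPM (log2 fold change 0.55, SE 0.12, adjusted p = 0.0085, edgeR), where fibroblast markers summed to 471 and 548 CPM against 233 and 278 CPM, and their part was not tested. Superficial-like CHOs had 3097 and 2644 CPM against 4098 and 3202 CPM (log2 fold change −0.29, SE 0.093, adjusted p = 0.0418, edgeR), and this call was lost under 9 of the alternatives. The resting-like call was lost with clusters (adjusted p = 0.0852) and without either mutant library (adjusted p = 0.147 and 0.108). The pre-hypertrophic-like call was lost with clusters (log2 fold change 0.45, adjusted p = 0.192), and the hypertrophic-like call without either mutant library (adjusted p = 0.215 and 0.119).

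Ccn1 changed in fewer zones. Columnar-like CHOs had 1211 and 1011 CPM in mutants and 867 and 920 CPM in controls (log2 fold change 0.44, SE 0.079, adjusted p = 7.3e-04, edgeR). Hypertrophic-like CHOs had 1157 and 1038 CPM against 497 and 484 CPM (log2 fold change 1.19, SE 0.12, adjusted p = 1.0e-04, edgeR). Neither zone overlapped between genotypes. Without mutant replicate 1 the hypertrophic-like call was lost (adjusted p = 0.0561), and the columnar-like call was lost without control replicate 1 (adjusted p = 0.0574). In resting-like CHOs the libraries overlapped, at 611 and 590 CPM against 443 and 609 CPM (95% interval of the log2 fold change 0.023 to 0.54, adjusted p = 0.130, edgeR), and without control replicate 2 the difference was called (log2 fold change 0.56, adjusted p = 3.3e-04). Pre-hypertrophic-like CHOs overlapped too, at 1020 and 925 CPM against 948 and 1046 CPM (95% interval −0.14 to 0.17). Superficial-like CHOs had 413 and 426 CPM against 446 and 521 CPM (95% interval −0.31 to 0.0062, adjusted p = 0.205, edgeR), called lower without control replicate 1 (log2 fold change −0.25, adjusted p = 0.0248).

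The share of genes called was 13.7% in superficial-like, 17.8% in resting-like, 28.9% in columnar-like, 31.0% in pre-hypertrophic-like and 36.8% in hypertrophic-like CHOs. Of the genes tested 2.58% in columnar-like and 7.72% in hypertrophic-like CHOs were called at least 2-fold higher in mutants, which takes in Ccn2 in the former and Ccn1 in the latter. The summed level of the immediate early SRF targets was 6245 and 5915 CPM in mutant and 6719 and 6520 CPM in control superficial-like CHOs, 11403 and 11172 CPM against 7097 and 7633 CPM in columnar-like CHOs, 11548 and 10656 CPM against 7272 and 7501 CPM in pre-hypertrophic-like CHOs, and 13656 and 12334 CPM against 4207 and 4121 CPM in hypertrophic-like CHOs. In resting-like CHOs, where Ccn2 was called higher, it was 8304 and 7731 CPM in mutants and 8400 and 8846 CPM in controls, and in pre-hypertrophic-like CHOs it was higher in mutants while Ccn1 overlapped. Their part in the Ccn1 and Ccn2 values was not tested. The hypertrophic-like zone held few control cells, 65 and 53 against 566 and 580 in mutants. When each library was clustered, clusters named hypertrophic-like held 785 and 626 mutant cells and 0 control cells, so the gated control cells of this zone lay in clusters of other names, and each genotype difference in this zone compares cells of different clusters. Clusters named columnar-like held 92 and 0 mutant cells and 424 and 494 control cells, so no columnar-like value could be checked with clusters. Of gated cells, 52.2% of columnar-like, 49.4% of resting-like and 47.9% of pre-hypertrophic-like CHOs lay in clusters of the same name.

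Over all CHOs Ccn2 stood at 1994 and 1876 CPM in mutants and 1269 and 1259 CPM in controls (log2 fold change 0.70, SE 0.048, adjusted p = 3.7e-08, edgeR), with 63.1% of genes called. Ccn1 overlapped, at 831 and 778 CPM against 729 and 805 CPM. Its small difference (log2 fold change 0.16, SE 0.058, adjusted p = 0.0288, edgeR) was lost under 7 alternatives. Counted over the 14 classes, Ccn1 was called higher in 9 and in no class lower, and Ccn2 was called higher in 12 and lower in 2, beside 4.68% to 63.1% of all genes tested, but these classes share libraries and some hold others.

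ECs were then set against each CHO zone within the same libraries. In controls Ccn1 was lower in ECs than in superficial-like, resting-like, columnar-like, pre-hypertrophic-like and hypertrophic-like CHOs by log2 differences of −2.89, −2.97, −3.70, −3.98 and −2.95. In mutants these differences were −0.66, −1.18, −1.99, −1.88 and −2.0. On this log2 scale the gap between ECs and cartilage was thus smaller in mutants for each zone, which does not speak of the difference in CPM. Ccn2 differed by −5.71, −3.61, −3.32, −3.80 and −4.65 in controls and by −3.35, −2.29, −2.31, −2.53 and −3.10 in mutants, in the same order of zones. In controls both genes were called in each pair, where 81.3%, 74.4%, 81.2%, 77.4% and 61.6% of genes tested were called. The ECs and cartilage of these pairs come from the same libraries, which entered the fit as a block.

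The change of the gap was tested as the genotype effect in ECs minus that in the zone. For Ccn1 it was 2.23 against superficial-like CHOs (SE 0.11, adjusted p = 2.7e-05, edgeR), 1.79 against resting-like (SE 0.11, adjusted p = 0.0017), 1.71 against columnar-like (SE 0.15, adjusted p = 9.1e-04), 2.11 against pre-hypertrophic-like (SE 0.14, adjusted p = 5.1e-04) and 0.95 against hypertrophic-like CHOs (SE 0.19, adjusted p = 0.0109). For Ccn2 it was 2.35 (SE 0.22, adjusted p = 2.9e-04, edgeR), 1.32 (SE 0.14, adjusted p = 0.0058), 1.01 (SE 0.11, adjusted p = 0.0022), 1.27 (SE 0.14, adjusted p = 0.0022) and 1.55 (SE 0.14, adjusted p = 3.2e-04), in the same order of zones. Both genes were called in each pair, beside 21.9%, 6.24%, 15%, 13.1% and 17.6% of the genes tested. The smallest value of Ccn1 was that against hypertrophic-like CHOs, the zone in which Ccn1 itself had its largest fold change. That value was 1.08 with free RNA subtracted and 1.007 and 0.887 without either mutant library, none of them called (adjusted p = 0.0516, 0.116 and 0.121), and against resting-like CHOs neither gene was called without either mutant library (adjusted p between 0.0787 and 0.123). The pairs share the same ECs and are not independent.

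**Figure D4:**
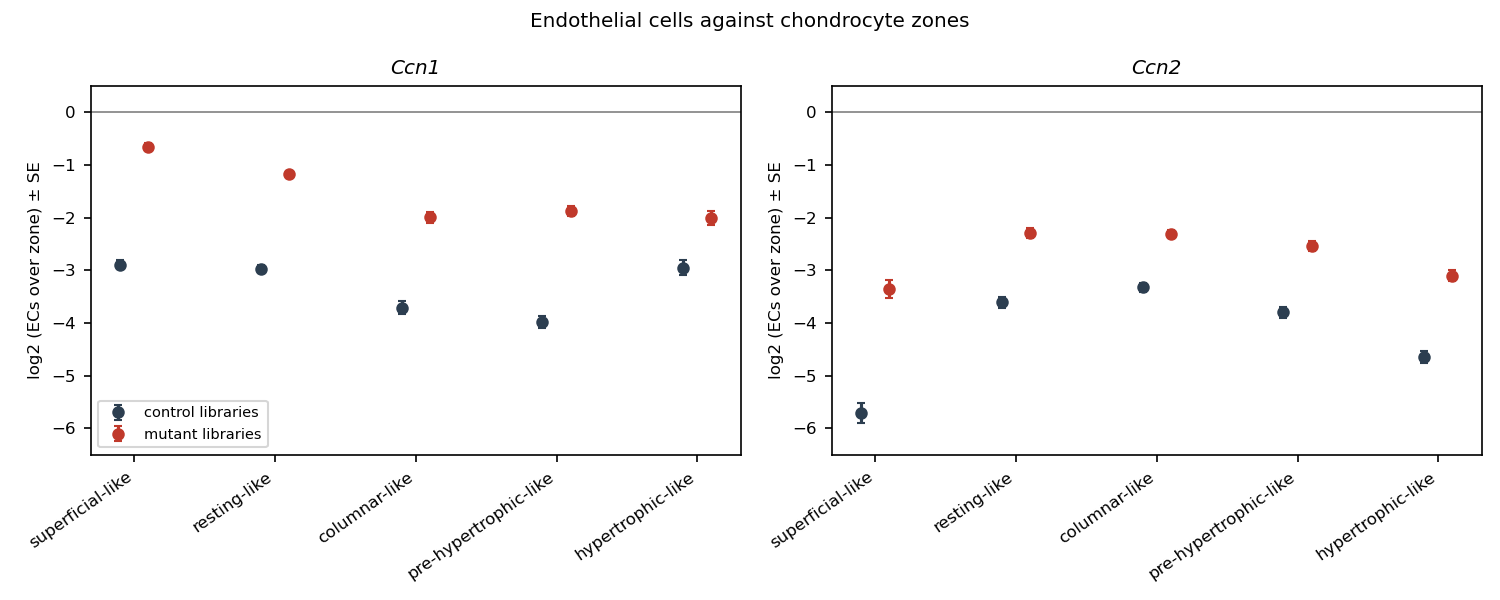
Log2 difference of ECs minus each CHO zone for Ccn1 and Ccn2, in controls and in mutants, with standard errors (edgeR, library as block). All differences lie below 0, and those of mutants lie nearer to 0 than those of controls in each zone.

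Ccn3, the member first described as a gene overexpressed in nephroblastoma, passed the filter only in fibroblasts. It stood there at 166 and 175 CPM in mutants and 188 and 175 CPM in controls, with a log2 fold change of −0.03 (95% interval −0.25 to 0.20). With a stricter gate and with clusters the value lay above this interval, as given below. Of gated fibroblasts, 70.8% lay in clusters of the same name. In mural cells, below the filter, Ccn3 had 67 and 56 counts (25.9 and 19.1 CPM) in mutants and 99 and 123 counts (62.3 and 76.7 CPM) in controls. The mural libraries did not overlap, and the fit without the filter gave a log2 fold change of −1.56 (SE 0.18, adjusted p = 2.1e-16, edgeR). The filtered mural fit gave Ccn2 a far larger adjusted p at a ratio of value to SE not far from this one. P-values without the filter, here and below, are thus not comparable with those of filtered fits. Sinusoidal-like ECs had 22 and 17 counts in mutants against 7 and 12 in controls, that is 24.0 and 17.5 CPM against 4.23 and 6.51 CPM (log2 fold change 1.92, SE 0.42, adjusted p = 1.3e-04 without the filter, edgeR). The 2 classes thus went in opposite directions, on sums of at most 123 counts. Fibroblast markers (4 of 9 detected) summed in sinusoidal-like ECs to 56.6 and 104 CPM in mutants and 11.5 and 29.8 CPM in controls, and their part was not tested.

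Ccn4, known for Wnt-responsive expression and its place in bone-forming cells, was tested in OBs and 3 CHO zones. OBs had 341 and 352 CPM in mutants and 406 and 412 CPM in controls. The libraries did not overlap. Hypertrophic-like CHO markers were higher in mutant OBs, as given above, and their part in this value was not tested. The log2 fold change was −0.25 (SE 0.066, adjusted p = 0.026, edgeR). This call was lost with DESeq2, a stricter gate and without either control library (adjusted p of 0.113, 0.249, 0.231 and 0.253), and with clusters the value was 0.04. Hypertrophic-like CHOs had 13.7 and 16.5 CPM in mutants and 50.01 and 22.6 CPM in controls, the latter from 48 and 15 counts (log2 fold change −1.31, SE 0.30, adjusted p = 0.0102, edgeR). Without control replicate 1 the value was −0.56 (adjusted p = 0.314), without either mutant library it was not called (adjusted p = 0.204 and 0.0945), and without the filter it was not called either (adjusted p = 0.0993), and without the barcodes of most UMIs it was −2.10. Markers of BMSCs (10 of 10 detected) summed in this zone to 373 and 419 CPM in mutants and 1061 and 591 CPM in controls, with the highest sum in the library of highest Ccn4, and their part was not tested. Ccn4 passed the filter here only through controls, with a count in 28.0% of control and 7.59% of mutant cells, so that it had to be lower in mutants to be tested at all, and the call is no support for a change. ECs against this zone differed in the genotype effect on Ccn4 by 1.62 (SE 0.34, adjusted p = 0.013, edgeR). Ccn4 entered that fit through the same control cells and did not pass in ECs, and the value was not called without either mutant library or without control replicate 1 (adjusted p of 0.156, 0.0848 and 0.126). Columnar-like CHOs had 21.4 and 20.2 CPM against 21.0 and 17.4 CPM (95% interval −0.11 to 0.59) and were called higher with free RNA subtracted (log2 fold change 0.89, adjusted p = 0.0111, edgeR). Pre-hypertrophic-like CHOs had 19.6 and 27.6 CPM against 30.2 and 30.1 CPM (95% interval −0.68 to 0.077) and were called lower without mutant replicate 2 (log2 fold change −0.56, adjusted p = 0.0439, edgeR). Mural cells, below the filter, had 57 and 65 counts in mutants and 15 and 16 in controls (log2 fold change 1.26, SE 0.28, adjusted p = 1.0e-04 without the filter, edgeR). Markers of metaphyseal-like BMSCs, a class with Ccn4, summed in mural cells to 3269 and 3410 CPM in mutants and 352 and 353 CPM in controls, and their part in the mural values was not tested.

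Ccn5, the member that lacks the cystine knot, was tested in BMSCs and fibroblasts. BMSCs had 231 and 217 CPM in mutants and 248 and 252 CPM in controls, with a log2 fold change of −0.07 (95% interval −0.21 to 0.061). Fibroblasts had 74.4 and 80.8 CPM against 58.9 and 65.3 CPM (95% interval 0.076 to 0.69, adjusted p = 0.138, edgeR). Neither was called, although neither overlapped between genotypes, and with a stricter gate the fibroblast difference passed the threshold (log2 fold change 0.63, adjusted p = 0.0496, edgeR). Ccn5 passed the filter of 20% of cells in fibroblasts only through mutants (24.4% against 16.4% of cells), the group in which it was higher, so that value is no support for a rise. OBs had 76 and 63 counts in mutants and 57 and 106 in controls, which makes 31.3 and 19.6 CPM against 3.92 and 6.76 CPM (log2 fold change 2.10, SE 0.20, adjusted p = 9.2e-24 without the filter, edgeR). That p is far below the one of Ccn2 in the filtered OB fit, where the value was larger beside its SE. It is therefore not comparable with p-values of filtered fits. In these OBs the markers of metaphyseal-like BMSCs (5 of 5 detected) summed to 9976 and 12413 CPM in mutants and 5798 and 5617 CPM in controls, and their part was not tested. Sinusoidal-like ECs had 14 and 8 counts of Ccn5 in mutants against 1 and 2 in controls, and metaphyseal-like ECs had 0 and 1 against 5 and 14. BMSC markers (9 of 10 detected) summed in sinusoidal-like ECs to 1009 and 1011 CPM in mutants and 389 and 489 CPM in controls, and those of diaphyseal-like BMSCs (5 of 5) to 476 and 574 CPM against 161 and 196 CPM, and their part was not tested.

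Ccn6 was lower over all CHOs of mutants, at 40.0 and 36.0 CPM against 61.8 and 69.4 CPM (log2 fold change −0.70, SE 0.069, adjusted p = 1.5e-06, edgeR). Within the zones in which it passed the filter the values were smaller. Columnar-like CHOs had 71.6 and 73.2 CPM in mutants and 86.8 and 95.4 CPM in controls (log2 fold change −0.21, 95% interval −0.42 to −0.00076, adjusted p = 0.123, edgeR). Pre-hypertrophic-like CHOs had 63.8 and 58.0 CPM against 66.4 and 94.2 CPM (95% interval −0.66 to −0.042, adjusted p = 0.0792, edgeR), and were called without mutant replicate 1 or control replicate 1 (log2 fold changes −0.43 and −0.58, adjusted p of 0.0225 and 2.8e-04). Resting-like CHOs had 50.3 and 52.3 CPM against 56.3 and 56.8 CPM (95% interval −0.32 to 0.23). Below the filter lay superficial-like CHOs, with 15.7 and 14.3 CPM against 13.9 and 14.6 CPM, and hypertrophic-like CHOs, with 7.02 and 7.30 CPM against 10.4 and 21.1 CPM.

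The make-up of the CHOs moved with this result. Columnar-like cells, the zone of highest Ccn6, numbered 164 of 2228 and 173 of 2442 gated CHOs in mutants and 401 of 1541 and 417 of 1600 in controls. Hypertrophic-like cells, where Ccn6 was lowest in mutants, numbered 566 and 580 of the same totals in mutants and 65 and 53 in controls. Pooled levels over all CHOs weigh these zones by their cells, and the part of the zones in the difference over all CHOs was not tested. ECs of controls had 2 and 10 counts of Ccn6, which entered the fits against cartilage only through the zones where it is high. No size of the difference between ECs and cartilage is therefore given.

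**Figure D5:**
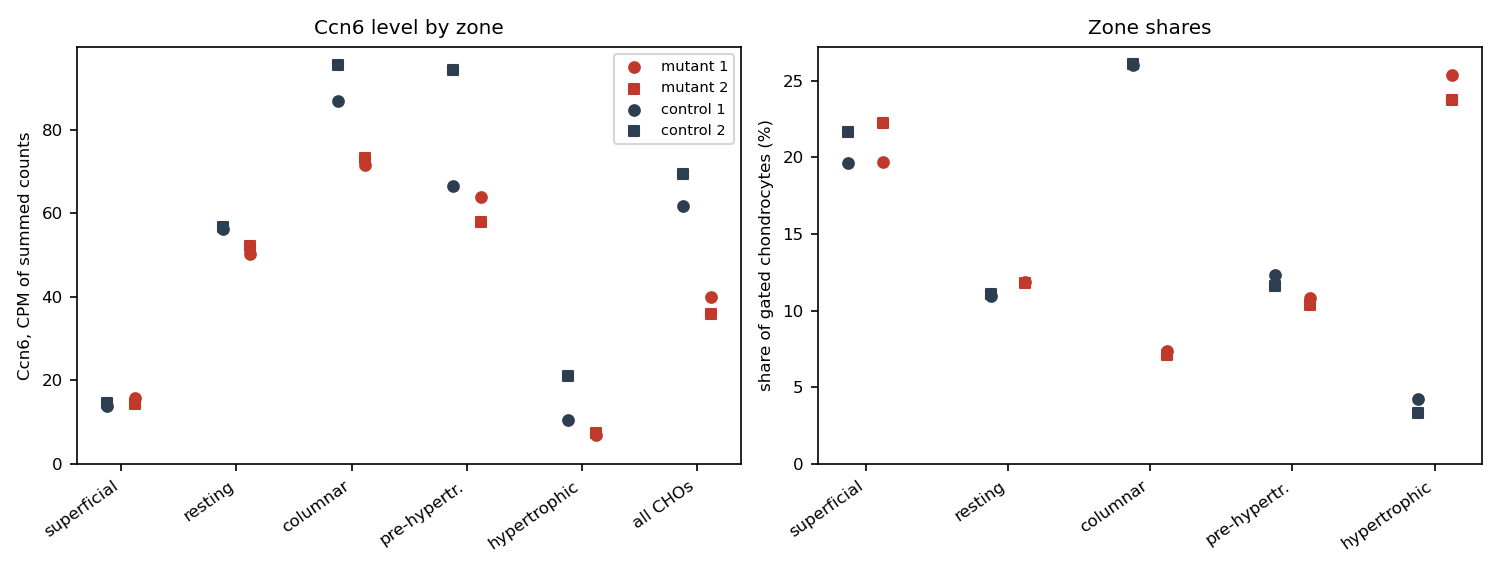
Ccn6 level (CPM of the summed counts) in each CHO zone, over all CHOs and in each library, beside the percent of gated CHOs that fall in that zone. Columnar-like cells, with the highest Ccn6, are a smaller share of mutant than of control CHOs, and hypertrophic-like cells, with low Ccn6, a larger one.

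Of the combinations of a member and 1 of the 14 classes, 39 passed the filter on counts and on the share of cells, and 45 did not. Ccn1 and Ccn2 passed in each of the 14 classes and the other members in 1 to 4, so that no count over those that passed speaks for the family as a whole.

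Other genes of the pathway were read from 4 lists. Genes of these lists could pass the filter through either genotype alone, and their shares of cells are not given here. Of 24 YAP1/TAZ-TEAD targets other than the CCN genes, 12 were tested in ECs, 8 were higher in mutants and 3 lower, with a median log2 fold change of 0.36 beside 0.0026 over all genes tested, of which 60.3% were called. Myof, a membrane repair protein, stood at 150 and 135 CPM against 49.3 and 39.1 CPM (log2 fold change 1.75, SE 0.10, adjusted p = 4.9e-10, edgeR). The stress-response gene Gadd45b (log2 fold change 1.40) and Amotl2, a junctional partner of YAP1 (0.74), were called higher as well. The deleted gene Lats2 is a member of this list and 1 of the 3 lower genes. The counts of this list differed between the classes in which Ccn1 and Ccn2 were both called higher. In metaphyseal-like ECs 15 were tested, 8 were higher and 4 lower (median 0.63, with 37.2% of all genes called). In sinusoidal-like ECs 13 were tested, 7 were higher and 2 lower (median 0.51, with 25.3% called), and in OBs 12 were tested, 4 were higher and 1 lower (median 0.075, with 14.5% called). In arterial-like ECs 11 were tested, 3 were higher and 4 lower (median 0.027, with 28.1% of all genes called). In BMSCs 15 were tested, 4 were higher and 6 lower (median −0.15, with 56.8% called), and in hypertrophic-like CHOs 16 were tested, 3 were higher and 6 lower (median −0.23, with 36.8% called). In columnar-like CHOs, the zone with most called genes of this list, 16 were tested, 8 were higher and 3 lower (median 0.22 beside −0.00047, with 28.9% of all genes called), led by Gadd45b (1.31), tissue factor F3 (0.96) and the ectonucleotidase Nt5e (0.77).

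In ECs and in hypertrophic-like CHOs the receptors that CCN proteins bind moved in both directions. Of 16 receptors and co-receptors, 8 were tested in ECs, 3 were higher and 4 lower (median −0.17), beside the same 60.3% of all genes. The Wnt co-receptor Lrp6 fell from 91.8 and 88.3 CPM in controls to 53.9 and 58.7 CPM in mutants (log2 fold change −0.61, SE 0.084, adjusted p = 1.1e-05, edgeR). Fgfr2 was lower (log2 fold change −0.44) and the integrin subunit Itgav higher (0.41). Of 8 tested in each EC subset, 1 was higher and 2 lower in sinusoidal-like and 3 were higher and 3 lower in metaphyseal-like ECs. In arterial-like ECs none were higher and 1 was lower. Of all genes, 25.3%, 37.2% and 28.1% were called in these subsets. Sinusoidal-like cells were 97 of 527 and 97 of 659 mutant ECs. They were 222 of 824 and 240 of 807 control ECs. The part of this make-up in values over all ECs was not tested. In hypertrophic-like CHOs 10 were tested, 2 were higher and 4 lower (median −0.24 beside −0.03 over all genes tested, of which 36.8% were called), with Sdc4, syndecan 4, at 984 and 983 CPM against 492 and 524 CPM (log2 fold change 0.99). There Itgav (−0.89) and Lrp1 (−0.50) were lower. Most of those tested were higher in BMSCs and over all CHOs, but not in the other classes. In fibroblasts and in superficial-like CHOs 8 were tested and none were called, beside 4.68% and 13.7% of all genes. In BMSCs 8 were tested, 6 were higher and 1 lower (median 0.32, with 56.8% of all genes called). Over all CHOs 9 were tested, 7 were higher and 1 lower (median 0.20, with 63.1% of all genes called).

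Of 13 other matricellular and IGF-binding genes, 7 were tested in ECs, 4 were higher and 2 lower (median 0.33, with 60.3% of all genes called). Thbs1, thrombospondin 1, stood at 401 and 287 CPM in mutant ECs and 50.9 and 38.4 CPM in control ECs (log2 fold change 3.004, SE 0.14, adjusted p = 3.4e-11, edgeR). Igfbp7 (log2 fold change 0.50) and Igfbp3 (0.48) were called higher, the latter with overlapping libraries at 434 and 587 CPM against 435 and 331 CPM. In hypertrophic-like CHOs 7 were tested, none were higher and 5 lower (median −0.69, with 36.8% of all genes called). Spp1, osteopontin, stood there at 11730 and 13081 CPM against 44407 and 50495 CPM (log2 fold change −1.91), and as a marker it was also used to gate this zone. Igfbp5 (−2.44) and Tnc (−1.12) were lower too, with control libraries that differed widely for Igfbp5 (261 and 51.3 CPM) and Tnc (144 and 54.3 CPM).

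Of 10 immediate early SRF targets, 8 were tested in ECs and each of these was higher in mutants (median 0.74, with 60.3% of all genes called). In metaphyseal-like ECs 3 of 8 were called, all higher (median 0.21), a share near the 37.2% of all genes called there. In sinusoidal-like ECs 6 of 8 were called, all higher (median 0.63, with 25.3% of all genes called), and in arterial-like ECs 8 of 8 (median 1.26, with 28.1%). Atf3 stood at 196 and 192 CPM against 74.2 and 73.9 CPM (log2 fold change 1.45), and Fos (1.09) and Junb (0.90) were higher as well. In hypertrophic-like CHOs 9 were tested, 8 were higher and none lower (median 1.45, with 36.8% of all genes called). Atf3 stood there at 939 and 849 CPM against 104 and 80.0 CPM (log2 fold change 3.30), beside Junb (1.87) and Fosb (1.82). The part of this list in the CCN values was not tested.

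The genes whose levels followed each member most closely were found over 60 points, 15 classes in 4 libraries, by Pearson correlation of log2(CPM + 1). These points share libraries and depth, and the values are a description. Ccn1 was closest to Fkbp9 (r = 0.91), Socs3 (0.88) and Plcd1 (0.88), and Ccn2 to Baiap2l1 (0.90), Gm15867 (0.89) and Twsg1 (0.87). Ccn1 and Ccn2 correlated with each other at r = 0.78. Ccn3 was closest to Map6 (0.89), Tppp3 (0.87) and Tnxb (0.84), and Ccn4 to Bmp1 (0.82), Fat3 (0.82) and Farp2 (0.82). Ccn5 was closest to Sfrp4 (0.90), Epdr1 (0.86) and Rspo2 (0.86). Ccn6 was closest to Cnmd (0.98), Col9a2 (0.98) and Matn3 (0.97), cartilage matrix genes that were used to gate CHOs.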

How the data were processed

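Single cells of femur and tibia metaphysis, depleted of hematopoietic cells, were profiled by droplet-based 3′ sequencing in 2 mutant and 2 control libraries. The authors trimmed reads (cutadapt 3.5) and mapped and counted them with STARsolo 2.7.10a on GRCm39, and deposited expected counts per gene and barcode, of which 9.09 to 9.95% of entries per library are not whole because reads shared by genes were divided.

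Barcodes were kept with at least 1000 UMIs, 800 genes, at most 15% mitochondrial and 5% hemoglobin counts and a complexity of at least 0.8. Each was assigned to the cell type with the highest marker score (at least 3 markers, score 0.5, margin 0.25), and then to a subtype by 2 markers and a margin of 0.2. Since the cell types were rebuilt from markers, differences from the study's own clusters may come from the names. Doublets were not called, and an alternative leaves out the 5% of barcodes with most UMIs. The members and lists were chosen with earlier results of these data known. Genes named besides the members are Lats2, up to 3 called genes with the largest change of each of 4 lists in ECs and in the zone with most called genes, and the 3 genes most like each member.

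Counts were summed per library and class, rounded and tested with edgeR 4.0.16 (R 4.3.3, TMM, quasi-likelihood, Benjamini-Hochberg over all genes tested, called at an adjusted p of at most 0.05). Genes had to pass filterByExpr and be counted in at least 20% of cells of either genotype. Adjusted p of fits without this filter are not comparable with those of filtered fits. ECs and each zone were fitted together with the library as a block. Shares of cells have exact binomial intervals. The scripts were tested on simulated data. Alternatives were DESeq2 1.42.0, other size factors, 2 other filters on genes, the replicate number as a block, other barcode limits, a stricter gate, clusters (scanpy 1.11.5, leidenalg 0.10.2), subtraction of free RNA and leaving out each library.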

Additional observations from a re-analysis of the deposited data

Results flagged for a closer look

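The genotype effect in ECs differed from that in each CHO zone, by the test of the difference in the fit of both classes (edgeR, Benjamini-Hochberg adjusted). For Ccn1 the effect in ECs was larger by a log2 difference of 2.23 against superficial-like, 1.79 against resting-like, 1.71 against columnar-like, 2.11 against pre-hypertrophic-like and 0.95 against hypertrophic-like CHOs. For Ccn2 the corresponding differences were 2.35, 1.32, 1.01, 1.27 and 1.55. For Ccn4 the effect in ECs exceeded that in hypertrophic-like CHOs by 1.62, on 48 and 15 counts in that zone of the control libraries. Ccn4 passed the filter in that fit only through those control cells, the group in which it was high, so the value is no support for a difference. These pairs share the same ECs, so they are not separate observations.

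Ccn2 was lower in both mutant libraries of fibroblasts than in both controls (log2 fold change −0.49) and higher in both mutant libraries of ECs. The difference between these 2 classes was not tested.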

How the results depend on the processing

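Of 980 values of a member under an alternative, 894 kept their direction and their side of the threshold, 51 were no longer called, 9 became called and 26 changed sign. The EC calls of Ccn1 and Ccn2 held throughout. The cause of the changes below was not tested, except that a looser filter tests more members and leaving out a library leaves fewer samples, with a lone library assumed to vary like the others. Members called rose with the filterByExpr filter alone from 2 to 4 in sinusoidal-like ECs and in BMSCs, from 1 to 4 in mural cells, from 2 to 4 in ECs against superficial-like CHOs and from 3 to 6 against hypertrophic-like CHOs. With no filter they numbered 4 in sinusoidal-like ECs, 4 in mural cells, 4 against superficial-like and 6 against hypertrophic-like CHOs, but 1 in columnar-like CHOs. Genes called over all genes rose without a filter too, from 1538 to 2253 in sinusoidal-like ECs and from 2104 to 3201 in mural cells. They rose likewise in the pairs, as given below. Shares of the genes tested are not given for these settings, so the rise is not read as a result about the members. DESeq2 called 1 in arterial-like ECs. In superficial-like CHOs 0 were called with DESeq2, filterByExpr alone, stricter barcodes, a stricter gate, clusters, free RNA subtracted or the top UMIs left out. Clusters called 1 in OBs and 0 in fibroblasts, resting-like and pre-hypertrophic-like CHOs, and gave no columnar-like or hypertrophic-like value. In fibroblasts a stricter gate called 2 and leaving out the top UMIs 0. Leaving out a library gave members called of 1 to 3 in OBs, 0 to 1 in mural cells and superficial-like CHOs, 0 to 2 in resting-like, 1 to 2 in columnar-like and pre-hypertrophic-like and 0 to 3 in hypertrophic-like CHOs, and 0 to 2 and 1 to 3 differences of the genotype effect against resting-like and hypertrophic-like CHOs. The same-numbered libraries did not deviate together (correlations −0.0668 to 0.0611 over 14 classes). Whether they share a litter or a batch is not given by the labels, and these values cannot decide it. With the replicate block Ccn1 and Ccn2 in ECs were 2.12 and 2.10, resting-like CHOs had 2 calls, and the calls of Ccn4 in OBs and Ccn1 over all CHOs were lost. The ratio of shares of mutant over control ECs with Ccn2 was 3.15 at 1000 UMIs, 3.379 at 500 and 2.814 at 2000. Genes called over all genes moved by more than 1.5 times in each comparison of the genotypes. They went from 3505 to 5507 without a filter in ECs, from 1473 to 700, 1538 to 565 and 2564 to 1377 in the arterial-like, sinusoidal-like and metaphyseal-like subsets at the lowest, to between 325 and 1941 in OBs (886), 737 and 3201 in mural cells (2104) and 0 and 782 in fibroblasts (268), and to 4833 in BMSCs (2987) and 8410 over all CHOs (4245). In the zones from superficial-like to hypertrophic-like, 819, 1158, 2098, 2203 and 2397 fell at the lowest to 290, 1, 970, 93 and 89, where the 1 and the 89 leave out mutant replicate 1. The differences of the genotype effect in the same order, 1567, 470, 1227, 1053 and 1318, ranged from 628, 1, 658, 170 and 266 to 1981, 1091, 1980, 1740 and 1936. Of ECs against these zones in controls, 5814, 5609, 6634, 6214 and 4621 genes called became 10333, 9418, 11318, 10087 and 6935 without a filter. Sign changes were in values that were not called, save Ccn4 in OBs (0.039 with clusters). Ccn1 in mural cells was 0.021 without a filter, 0.020 with stricter barcodes and 0.034 with clusters, and Ccn1 in fibroblasts −0.52 with clusters. Ccn3 in fibroblasts was 0.0030 with filterByExpr alone, 0.013 with no filter, 0.24 with a stricter gate and 1.21 with clusters. Ccn6 in resting-like CHOs was 0.0032 with a stricter gate and 0.0050 without the top UMIs. Ccn1 in pre-hypertrophic-like CHOs was −0.0033 with filterByExpr alone, −0.031 with no filter, −0.16 with clusters and −0.0465 without the top UMIs. The Ccn4 difference against columnar-like CHOs was −0.000503 with a stricter gate and −0.052 with free RNA subtracted. Leaving out a library gave −0.22 to 0.16 for Ccn1 in mural cells, −0.063 to 0.012 for Ccn3 in fibroblasts, −0.064 to 0.10 for Ccn1 in pre-hypertrophic-like CHOs, and −2.145 to 0.10, −1.937 to 0.25 and −1.90 to 0.20 for the Ccn6 difference of the genotype effect against resting-like, columnar-like and pre-hypertrophic-like CHOs. These Ccn6 values rest on 1 and 3 EC counts in mutants and 2 and 10 in controls, and no difference is read from them.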

Other observations

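The 2 BMSC subsets differed in Ccn5 although BMSCs as a whole did not pass the test. Diaphyseal-like BMSCs had 226 and 254 CPM in mutants and 285 and 309 CPM in controls, and metaphyseal-like BMSCs 238 and 203 CPM against 129 and 130 CPM, each without overlap. The subsets thus lay apart in controls, at 297 and 130 CPM on average, and close together in mutants, at 240 and 221 CPM. Diaphyseal-like cells numbered 350 and 460 in mutants and 1230 and 1148 in controls. Of the gated cells, 43.0% of metaphyseal-like and 87.0% of diaphyseal-like BMSCs lay in clusters of the same name. No test was run on these subsets, and an exact permutation test of 2 libraries against 2 cannot give a p under 0.333.

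Both subsets had higher Ccn1 in mutants. It stood at 351 and 377 CPM against 245 and 224 CPM in metaphyseal-like and at 329 and 366 CPM against 181 and 181 CPM in diaphyseal-like BMSCs. Ccn2 stood at 620 and 486 CPM against 265 and 414 CPM in the former and at 275 and 197 CPM against 134 and 106 CPM in the latter. Cycling CHOs, of 57 to 74 cells a library, had Ccn2 at 708 and 723 CPM in mutants and 414 and 451 CPM in controls.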
